A study of Caenorhabditis elegans with 12 samples.

Results

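The numbered col genes of the nematode Caenorhabditis elegans encode cuticle collagens that are named only by a number. Of 159 such genes in both deposited tables, 134 had a total of 60 or more footprint counts over the 12 libraries and are described here, out of 46711 rows that both tables held. The other 25 had 59 counts or fewer, and col-66, col-78 and col-136 had 0. The members nearest to the limit were col-158, with 61 counts, and col-148, with 80, while col-83, with 59, and col-53, with 54, lay just outside it.

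Collagens are the main protein of the worm's cuticle, the outer coat that the epidermis secretes. They are made as procollagens, modified and cleaved on the way out of the cell, cross-linked outside it, and laid down as a new cuticle under the old one before each molt. Single collagen genes are switched on at set times within the molting cycle, and some are used in 1 stage alone. The change from larval to adult cuticle is under the control of the heterochronic pathway, in which the microRNA let-7 represses lin-41, and an adult set of collagens comes on at the last molt.

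Footprints of translating ribosomes, the stretches of mRNA that ribosomes shield from RNase I, were sequenced from whole larvae of the mid-L4 stage, the last larval stage, kept at 20 °C for 45 h after feeding. The series asks how pairing of let-7 with its targets beyond the seed bears on its function in the animal. The libraries formed 4 groups of 3, with the letters A, B and C. Animals of the group let7_U13A carried let-7(ma432) with lin-41(tn1541ma480), and its labels add that the effects downstream of lin-41 were excluded. Its control, control_for_U13A, carried lin-41(tn1541), known as a GFP tag on the gene's own locus. The group let7_U18A carried let-7(ma435) with maIs105, and its control, control_for_U18A, carried maIs105 alone. maIs105 is known as an integrated transgene in which the promoter of col-19 drives GFP, so both groups of that pair bear an extra col-19 promoter. Within the U13A pair lin-41 is altered along with let-7, and the 2 cannot be told apart in its changes. The labels do not say that libraries came from separate cultures, so p-values measure the spread between these libraries. No mRNA levels were analysed here, so that a change in footprints can be one of mRNA amount or of its translation, and in whole animals fewer cells and less RNA per cell cannot be told apart.

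Total counts per library ran from 8405704 to 44950649. Levels are given as CPM, the counts of a gene scaled by the total of its library. The 134 collagens together took between 4.04% and 7.52% of all counts of a library. The share ran from 4.05% to 7.52% in control_for_U13A, from 4.04% to 6.59% in let7_U13A, from 5.14% to 5.88% in control_for_U18A and from 4.39% to 5.57% in let7_U18A, and these ranges overlapped within both pairs. Libraries of 1 group differed in these genes more in the U13A pair than in the U18A pair. Over the 105 members with a mean above 8 CPM, the median coefficient of variation between the libraries of a group was 30.6% in control_for_U13A and 24.2% in let7_U13A, against 12.8% and 10.8% for all 8009 genes above that level. It was 7.22% in control_for_U18A and 13.1% in let7_U18A, against 6.75% and 8.31% for all genes. The members moved together between libraries: of the 127 tested in the U13A pair, 113 were lowest in replicate C of control_for_U13A, and 110 were highest in replicate C of let7_U13A.

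In a principal component analysis of those 105 members, the libraries of the U13A table lay apart on the first component, which held 75.6% of the variance, with scores of -9.42 to -5.35 against 6.59 to 8.56 for the U18A table. The second held 12.8% and put the controls of both tables at -3.58 to -2.08 and the mutants of both tables at 1.74 to 4.04.

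Levels between genes were compared per kilobase of coding sequence, which 132 members had in the Ensembl release 115 annotation of WBcel235. The coding sequences were alike in length, with a median of 907.5 bases and a range of 462 to 2205. The mean level over the 4 groups spanned a wide range, from 0.257 CPM per kilobase for col-158 to 2917 for col-117, with a median of 163. After col-117 came col-3 at 2916, col-10 at 2579, col-144 at 2373 and col-167 at 2132 CPM per kilobase. The 10 members with the most counts held 37.5% of all counts on members, and the 30 with the most held 72.8%.

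**Figure D1:**
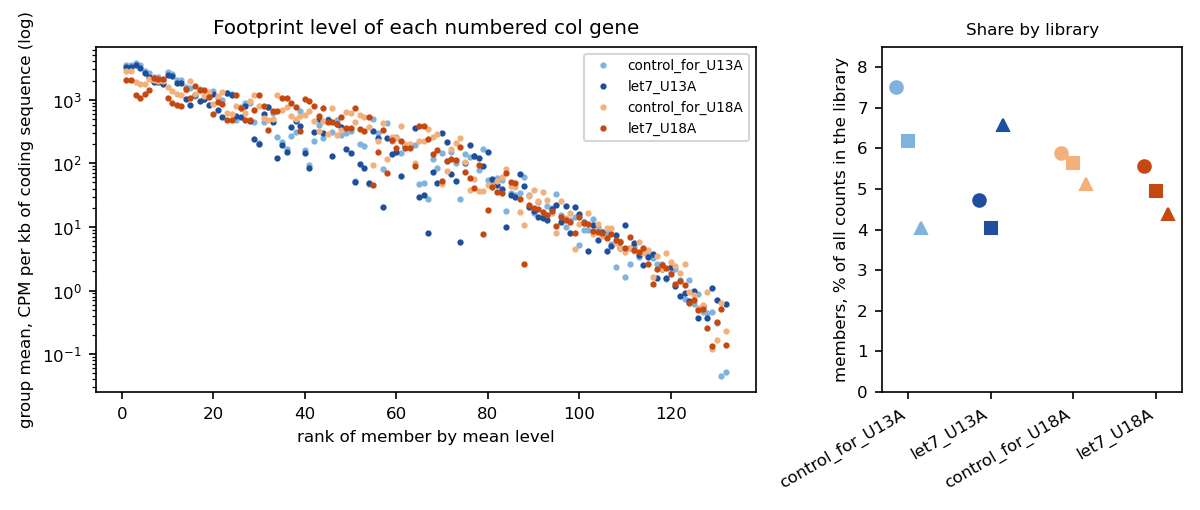
Left, mean level of each of the 132 annotated members in each group, in CPM per kilobase of coding sequence on a log axis (values of 0 are left out), ordered by the mean over the groups. Right, share of all counts that fell on members in each library (circle, replicate A; square, B; triangle, C). Levels fall from 2917 CPM per kilobase to under 1, and the shares lie between 4.04% and 7.52% with overlapping groups in both pairs.

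The members lie on all 6 chromosomes, with 37 on IV, 28 on V, 23 on X, 16 each on I and II and 12 on III. A total of 46 lie within 5000 bp of another member, in 19 clusters of up to 5 genes, and 56 overlap another annotated gene, 53 of these on the other strand. How the counting treated strand and reads with several matches is not given in the sources used here. Counts of overlapping genes are therefore uncertain, among them col-14, col-41 and col-8, each overlapped on the other strand, and col-54, overlapped by F33D11.15 on its own strand. In 8 neighbouring sets the counts of members lay within 15% of each other in all 12 libraries. These sets were col-7 with col-62, col-92 with col-93 and col-94, col-117 with col-3, col-126 with col-127, col-144 with col-10, col-12 with col-13, col-154 with col-155, and col-169 with col-170. In the closest case, col-126 and col-127 differed by at most 5 counts in any library. No sequences were compared, so whether these are near copies that share reads was not tested. If they share reads, the members of a set cannot be told apart, so they are not read as independent observations.

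In the U13A pair, 20 of the 127 members tested fell in the mutant and none rose (edgeR's quasi-likelihood test, Benjamini-Hochberg adjusted p under 0.05 over all 12874 genes tested). The genes that fell were 15.7% of the members tested, and 5.64% of all genes tested were called in this pair, 2.57% lower and 3.07% higher. At an unadjusted p under 0.05, 37 members were lower and 3 higher. All genes were not counted at that cut-off, so these numbers are not read as a result about the members. DESeq2 called 28 members lower and 1 higher, among 725 genes called in either direction, a total not split by direction. CPM did not overlap between the groups for 36 of the 127 members in the lower direction and 6 in the higher direction. Over all 12874 genes the numbers were 1575 (12.2%) lower and 1114 (8.65%) higher. The median log2 fold change was -0.12 over the members and 0.00 over all genes. The 20 genes that fell had log2 fold changes from -2.24 to -0.43, and 11 of them fell by 1 or more. The members not tested, for low counts, were col-36, col-47, col-69, col-123, col-148, col-158 and col-177.

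The largest fall was that of col-120 (chromosome IV, 9260610 to 9261787, minus strand). Its level was 22.2, 30.8 and 25.4 CPM in replicates A to C of control_for_U13A and 4.64, 6.82 and 4.61 CPM in let7_U13A. The groups were far apart, and the mutant mean was 20.5% of the control mean (log2 fold change -2.24 ± 0.18 SE, edgeR adjusted p = 1.99e-05). col-60 (chromosome I, 7105302 to 7106926, plus strand) read 22.96, 29.1 and 22.7 CPM in the control libraries and 7.11, 7.34 and 6.996 CPM in the mutant libraries. It too separated without overlap, with the mutant at 28.7% of the control (log2 fold change -1.77 ± 0.16 SE, edgeR adjusted p = 2.86e-05). col-14 (chromosome IV, 7753408 to 7754656, plus strand), at a higher level, went from 349, 349 and 295 CPM to 136, 144 and 164 CPM. Its log2 fold change was -1.13 ± 0.15 SE, with an edgeR adjusted p of 0.000818. col-175 (chromosome X, 9233638 to 9234618, minus strand) went from 155, 203 and 154 CPM to 71.9, 82.4 and 94.5 CPM, and fell by 1.005 ± 0.17 SE on the log2 scale. These 4 genes, with col-38 and col-49, described with the late collagens, are the 6 whose call held in every fit that left out 1 library and under every other setting tried.

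The remaining falls were less secure. col-88 (chromosome III, 41063 to 41971, plus strand) read 70.1, 101 and 50.1 CPM in the control and 17.9, 18.3 and 20.2 CPM in the mutant. The groups did not overlap, and the log2 fold change was -1.96 ± 0.32 SE (edgeR adjusted p = 0.0234). Its call was lost without control replicate A, where the adjusted p was 0.108, and without mutant replicate A, B or C, where it was 0.0927, 0.08 and 0.095. col-104, col-97 and col-65 fell by 1.20, 1.18 and 1.14 on the log2 scale, with edgeR adjusted p of 0.0444, 0.029 and 0.0364. All 3 lost the call without control replicate B or without mutant replicate A or B, at adjusted p of up to 0.129, and col-104 and col-97 also without control replicate A. With no filter on counts the calls of col-88, col-104, col-97 and col-65 were all lost, at edgeR adjusted p of 0.0738, 0.126, 0.0692 and 0.099. The count of members that fell was 7 without control replicate B, 33 without control replicate C, 6 without mutant replicate A and 7 without mutant replicate B.

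Other cuticle and stage genes moved in this pair beside the collagens. Of the 10 genes of a molting list 2 rose, at a summed level of 279 to 315 CPM in the control and 362 to 506 CPM in the mutant. Of 10 oocyte genes, 8 rose, at 156 to 182 CPM in the control and 263 to 316 CPM in the mutant. The part of developmental stage or of the germ line in the collagen falls was not tested.

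In the U18A pair, 58 of the 131 members tested fell and 26 rose. Together these are 64.1% of the members tested, and 10.9% of all 13614 genes tested were called, 6.75% lower and 4.11% higher. CPM did not overlap between the groups for 66 of the 131 members in the lower direction and 27 in the higher direction. Over the 13603 genes compared in this way the numbers were 2673 (19.7%) lower and 1091 (8.02%) higher. The median log2 fold change was -0.32 over the members and 0.00 over all genes. Most changes were small: 7 falls and 1 rise were of 1 or more on the log2 scale. The genes that rose had a median level of 433.5 CPM per kilobase, those that fell 207.7 and those not called 18.3. col-45, col-123 and col-158 were not tested.

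The deepest fall was that of col-41 (chromosome X, 15175032 to 15176481, minus strand). It read 60.4, 48.6 and 31.5 CPM in control_for_U18A and 8.04, 8.37 and 13.1 CPM in let7_U18A. Every mutant library lay below every control library, and the mutant mean was 21.0% of the control mean (log2 fold change -2.18 ± 0.23 SE, edgeR adjusted p = 6.22e-05). col-54 (chromosome I, 5842709 to 5844050, plus strand) went from 11.4, 9.34 and 6.52 CPM to 2.12, 1.93 and 2.46 CPM. It fell by 1.998 ± 0.24 SE on the log2 scale (edgeR adjusted p = 0.000111), resting on 20 to 43 counts in the mutant libraries. col-176 (chromosome X, 10077597 to 10078728, plus strand) went from 48.9, 39.4 and 33.7 CPM to 16.2, 13.2 and 19.8 CPM, a log2 fold change of -1.26 ± 0.16 SE.

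Among the abundant members, col-73 went from 1766, 1780 and 1578 CPM to 828, 888 and 983 CPM (log2 fold change -0.88 ± 0.08 SE, edgeR adjusted p = 4.35e-05). col-17 fell by 0.95 ± 0.09 SE and col-90 by 0.98 ± 0.11 SE on the log2 scale. The 5 members with the highest levels per kilobase also fell, by 0.67 for col-144, 0.64 for col-10, 0.49 for col-167, 0.46 for col-3 and 0.45 for col-117, and col-144 and col-10, like col-117 and col-3, form a near-equal set. The calls of col-117, col-3 and col-167 were lost without control replicate A or without mutant replicate B, at edgeR adjusted p of 0.0803 to 0.122, and those of col-117 and col-167 also without mutant replicate C. Smaller genes completed the named falls: col-79 at -1.03, col-182 at -1.07 and col-128 at -1.16 in log2 fold change. The call of col-128, at 15 to 23 counts in the mutant libraries, was lost without mutant replicate B or C, at adjusted p of 0.0925 and 0.0623.

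The largest rise was that of col-8 (chromosome III, 7019583 to 7020600, minus strand), the only member that rose by 1 or more. Its level was 30.1, 25.2 and 42.7 CPM in control_for_U18A and 97.5, 88.4 and 62.97 CPM in let7_U18A, with no overlap. The mutant mean was 2.54 times the control mean (log2 fold change 1.40 ± 0.18 SE, edgeR adjusted p = 0.000194). col-129 rose from 558, 587 and 587 CPM to 1296, 990 and 773 CPM, a log2 fold change of 0.88 ± 0.15 SE. col-80 rose from 312, 289 and 304 CPM to 583, 568 and 436 CPM (0.86 ± 0.11 SE), and col-119 rose by 0.82 ± 0.13 SE. col-135 and col-184 rose by 0.78 ± 0.22 SE and 0.77 ± 0.17 SE. The call of col-135, at an edgeR adjusted p of 0.0371, was lost without control replicate A or C or without mutant replicate A or C, at adjusted p of 0.0519 to 0.129. With no filter on counts 12 members rose, and the calls of col-8, col-129, col-135 and col-184 were lost, at edgeR adjusted p of 0.0602, 0.105, 0.326 and 0.222. Of the 26 genes that rose, 24 were lowest in replicate C among the mutant libraries and 21 highest in replicate A.

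The 84 calls of the U18A pair came from a fit of its own 6 libraries. With all 12 libraries in 1 fit, which then share an estimate of the spread, 26 members fell and 1 rose. Among the falls named above, col-176, col-144, col-10, col-167, col-3 and col-117 lost the call in that fit, at edgeR adjusted p of 0.0819 to 0.464. Among the rises, col-129, col-80, col-184, col-135 and col-119 lost it, at edgeR adjusted p of 0.147 to 0.26. Without let7_U18A replicate B 35 fell, and 34 of the 58 falls and 17 of the 26 rises were called in every fit that left out 1 library.

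**Figure D2:**
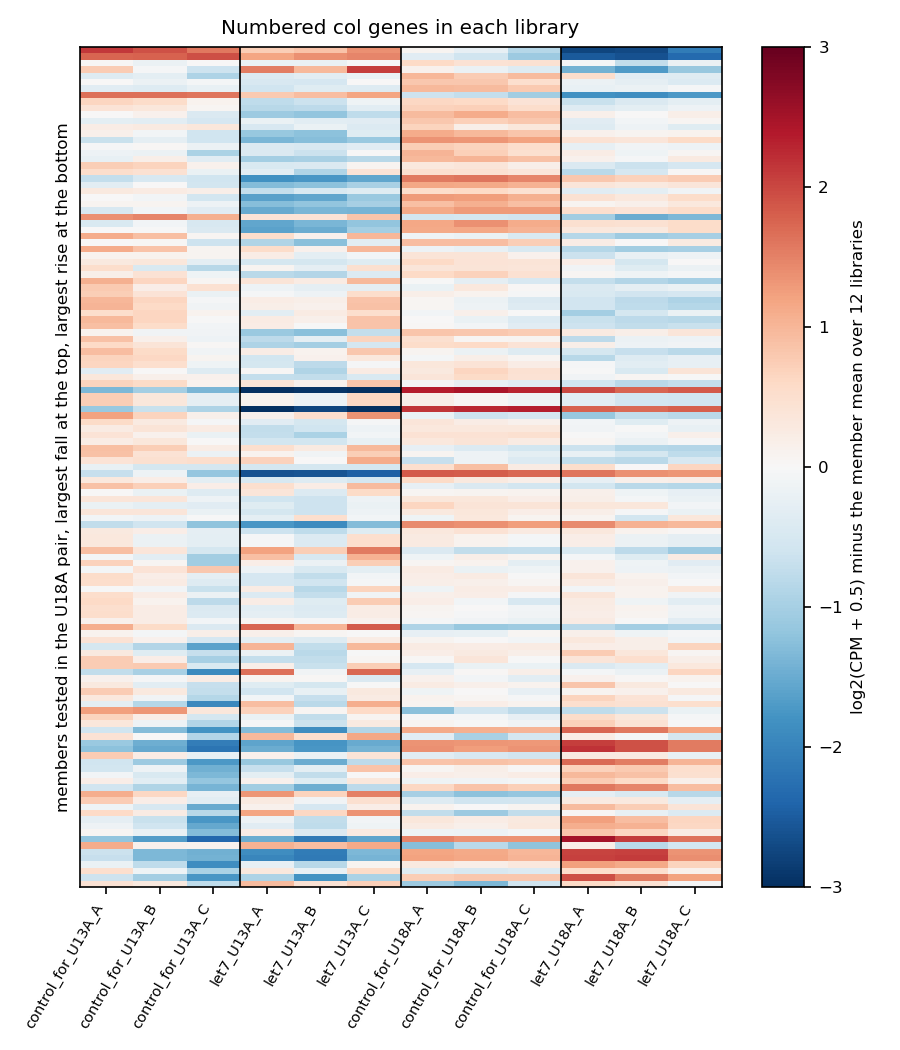
Each row is 1 of the 131 members tested in the U18A pair, ordered from the largest fall at the top to the largest rise at the bottom, and each column is a library. Colour gives log2(CPM + 0.5) minus the member's mean over the 12 libraries, cut off at 3 in either direction. Rows at the top turn towards blue, and rows at the bottom towards red, from the control to the mutant of the U18A pair. The darkest rows near the middle are members, col-60 and col-120 among them, that differ mainly between the tables.

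The heat map of libraries shows the members' values behind both comparisons, and the same shift between the replicates of the U13A pair as given above, with replicate C of its control the palest or bluest of the 3 in most rows.

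The U18A changes stood beside changes in the molting cycle genes. Of the 10 molting genes 9 fell, from a summed level of 1021 to 1430 CPM in the control to 512 to 533 CPM in the mutant. Of 8 genes that mark the epidermis 5 fell, and the summed level of all 8 went from 1559 to 1877 CPM to 799 to 951 CPM. The 5 were the cuticle collagen genes dpy-7, rol-6, sqt-3 and dpy-13 and the matrix gene noah-1. The other markers, lin-26, elt-3 and nhr-23, were not called, at log2 fold changes of -0.26, 0.04 and -0.06. Of the 10 oocyte genes 8 rose, from 287 to 442 CPM to 610 to 665 CPM. The part of stage, of the amount of epidermis or of the germ line in the collagen changes was not tested.

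The pairs share no library, and their calls could be compared. Of the 126 members tested in both, 42 were called in neither pair, 64 in the U18A pair alone, 1 in the U13A pair alone and 19 in both. All 19 fell in both pairs. They are 95.0% of the members that fell in the U13A pair and 33.3% of the 57 such members that fell in the U18A pair. Over all genes, 81 fell in both, 24.8% of the 326 that fell in the U13A pair and 9.32% of the 869 that fell in the U18A pair, and 17 fell in the U13A pair and rose in the U18A pair. The exception among members was col-88, whose log2 fold change in the U18A pair was -0.30 ± 0.09 SE with an edgeR adjusted p of 0.0574. The 26 members that rose in the U18A pair did not share a direction in the U13A pair, where 15 were positive, 11 negative and none called, with a median log2 fold change of 0.27 and a range of -0.65 to 1.66.

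**Figure D3:**
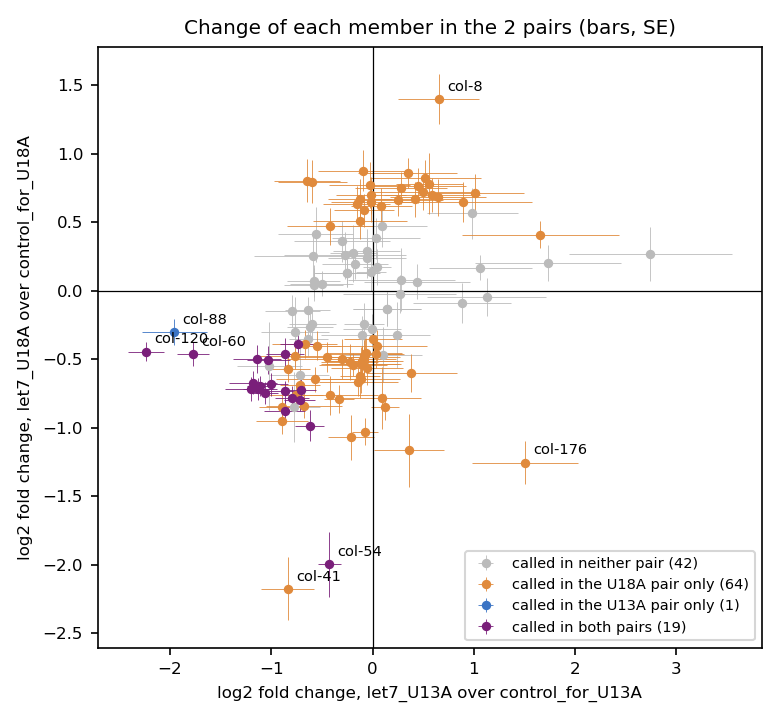
Log2 fold change of each of the 126 members tested in both pairs, mutant over its own control, with the U13A pair on the x axis and the U18A pair on the y axis; bars are standard errors, and colours give the pair in which a member was called at an edgeR adjusted p under 0.05. The 19 members called in both pairs all lie at the lower left, below 0 on both axes, and the error bars of the U13A pair are longer than those of the U18A pair.

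As the plot of both pairs shows, the members' estimates were less exact in the U13A pair. Their median standard error was 0.33 on the log2 scale there and 0.13 in the U18A pair, against 0.15 and 0.12 for all genes. A call in the U18A pair alone therefore does not show that the U13A pair differed.

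A list of late collagens, those of the last larval and the adult cuticle, was drawn up from general knowledge as 1 list and has 7 genes, all members. Its division into L4 and adult genes was made later, with the values known, and is therefore no test of stage. col-138, col-63, col-49 and col-38, known as collagens of the L4 stage, fell in both pairs. col-62, col-19 and col-7, known as adult collagens, rose in the U18A pair and were not called in the U13A pair. col-38 (chromosome II, 8568035 to 8569088, minus strand) read 208, 246 and 226 CPM in control_for_U13A and 97.4, 102 and 116 CPM in let7_U13A. It read 1017, 1044 and 953 CPM in control_for_U18A and 600, 555 and 586 CPM in let7_U18A. Both mutants lay below their own control without overlap, at log2 fold changes of -1.07 ± 0.13 SE and -0.75 ± 0.08 SE (edgeR adjusted p = 0.000367 and 6.22e-05).

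col-49 behaved likewise, with log2 fold changes of -1.11 ± 0.13 SE and -0.69 ± 0.07 SE. col-63 changed by -0.72 ± 0.15 SE in the U13A pair and by -0.80 ± 0.08 SE in the U18A pair. For col-138 the values were -0.87 ± 0.20 SE and -0.74 ± 0.08 SE. In the U13A pair the calls of col-63 and col-138 were lost without control replicate B, at edgeR adjusted p of 0.0711 and 0.0822, and without mutant replicate A or B, at 0.0687 to 0.126. That of col-138 was also lost without control replicate A, at 0.0616.

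col-19, the adult collagen whose promoter is used in reporters of the adult state, read 303, 223 and 116 CPM in control_for_U13A and 265, 199 and 307 CPM in let7_U13A. These groups overlapped, and it was not called, at a log2 change of 0.28 ± 0.45 SE. In the other pair it read 398, 372 and 416 CPM in the control and 718, 692 and 516 CPM in the mutant. There, in the U18A pair, it rose without overlap, by 0.75 ± 0.12 SE on the log2 scale (edgeR adjusted p = 0.000721). Whether the transgene maIs105 adds reads to col-19 was not tested, and both groups of that pair carry it.

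The neighbours col-7 and col-62, which may share reads, rose by 0.79 ± 0.16 SE and 0.80 ± 0.15 SE in the U18A pair. They stood at -0.59 ± 0.34 SE and -0.65 ± 0.33 SE in the U13A pair. col-62 read 225, 221 and 199 CPM in control_for_U18A and 410, 419 and 258 CPM in let7_U18A, so that replicate C of the mutant was nearest to the control. The call of col-7 was lost without let7_U18A replicate A, at an edgeR adjusted p of 0.0516. With no filter on counts the calls of col-7 and col-62 were lost, at 0.16 and 0.149. None of the 7 late collagens was among the members called for a difference between the pairs. The nearest were col-62 and col-7, at differences of -1.45 ± 0.39 SE and -1.39 ± 0.40 SE with edgeR adjusted p of 0.0562 and 0.0759. All 3 adult genes that rose in the U18A pair lost the call with all 12 libraries in 1 fit, at edgeR adjusted p of 0.098 to 0.214.

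**Figure D4:**
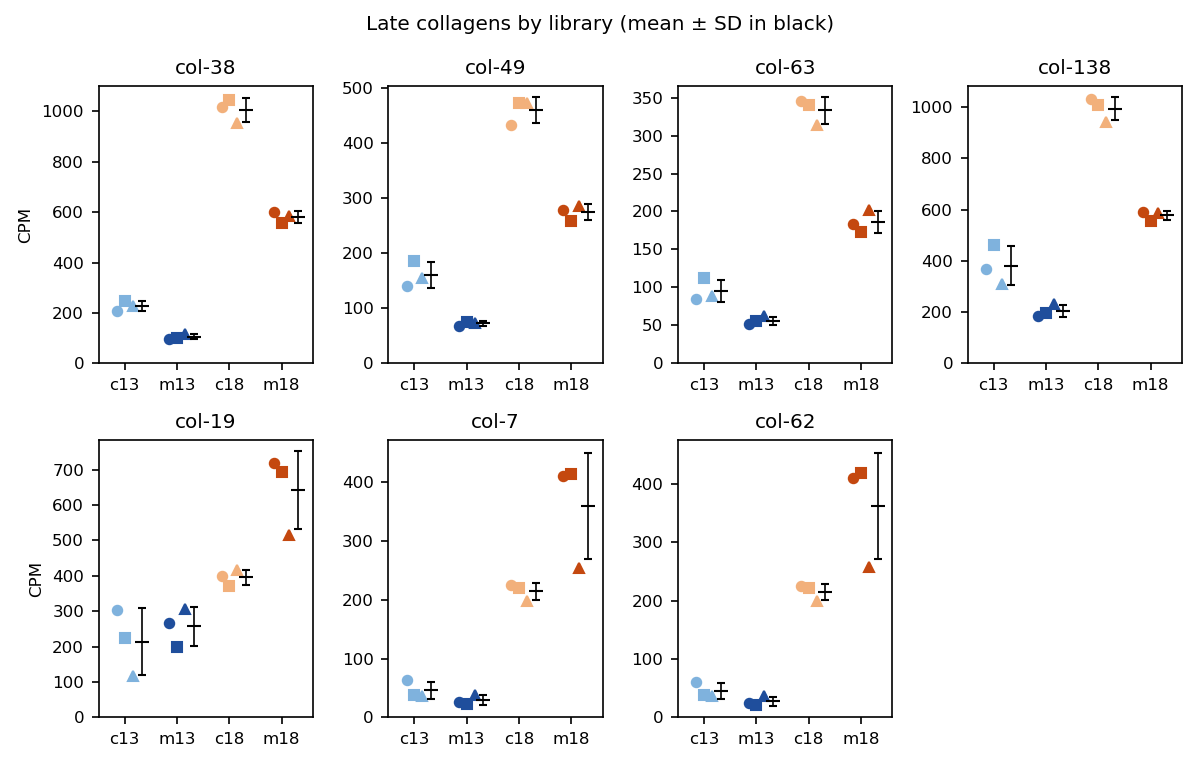
CPM of the 7 late collagens in each library, with the group mean ± SD in black; c13 is control_for_U13A, m13 let7_U13A, c18 control_for_U18A and m18 let7_U18A, and circles, squares and triangles are replicates A, B and C. The 4 genes of the upper row are lower in both mutants than in their own controls, while col-19, col-7 and col-62 are higher in let7_U18A and overlap between the groups of the U13A pair.

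The plot of the late collagens also shows the offset between the tables: in every panel the U18A control lies above the U13A control.

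Whether a member changed differently in the 2 pairs was tested as the U13A change minus the U18A change over all 12 libraries. Of the 131 members tested, 4 were higher and 3 lower, 5.34% of members against 5.58% of all 13597 genes (4.05% higher and 1.53% lower). The share called was thus near that of all genes. The median standard error was 0.40 for the members and 0.20 for all genes, so near-equal shares do not show that the differences were alike in size. At an unadjusted p under 0.05, 10 members were higher and 10 lower. All genes were not counted at that cut-off, so these numbers too are not read as a result about the members. col-120, col-88 and col-60 fell further in the U13A pair. In the U18A pair col-120 read 217, 238 and 249 CPM in the control and 169, 161 and 170 CPM in the mutant. It changed by -0.45 ± 0.07 SE there, and the difference between the pairs was -1.79 ± 0.19 SE (edgeR adjusted p = 2.13e-05). col-60 changed by -0.46 ± 0.09 SE there, a difference of -1.31 ± 0.18 SE (edgeR adjusted p = 0.000194). For col-88 the difference was -1.65 ± 0.33 SE (edgeR adjusted p = 0.0124).

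The other 4 stood lower in the U18A pair. col-176 read 74.8, 43.4 and 28.7 CPM in control_for_U13A and 129, 87.4 and 188 CPM in let7_U13A. The mutant libraries lay above the control libraries, but at 1.51 ± 0.53 SE on the log2 scale no call was made (edgeR adjusted p = 0.225), and the difference from the U18A pair was 2.78 ± 0.54 SE (edgeR adjusted p = 0.0103). col-54 read 49.7, 50.8 and 56.2 CPM in control_for_U13A and 33.7, 38.2 and 40.999 CPM in let7_U13A, a small fall without overlap (-0.43 ± 0.12 SE), and the difference was 1.57 ± 0.27 SE (edgeR adjusted p = 0.00208). Its call within the U13A pair was lost without any 1 of the 3 control libraries and without mutant replicate A or B, at adjusted p of up to 0.239. col-79 and col-110 did not pass the test in the U13A pair, at -0.07 ± 0.13 SE and 0.12 ± 0.14 SE, each changing sign without 1 library, and fell in the U18A pair, at -1.03 ± 0.10 SE and -0.85 ± 0.10 SE. Their differences were 0.96 ± 0.15 SE and 0.98 ± 0.17 SE. The calls of col-88 and col-176 were lost without control_for_U18A replicate C, at an adjusted p of 0.0528, and without let7_U18A replicate A, at 0.0647. Counts of higher members were 8 without let7_U13A replicate B, and counts of lower members were 7 without control_for_U13A replicate C or let7_U13A replicate C and 5 without let7_U18A replicate C.

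**Figure D5:**
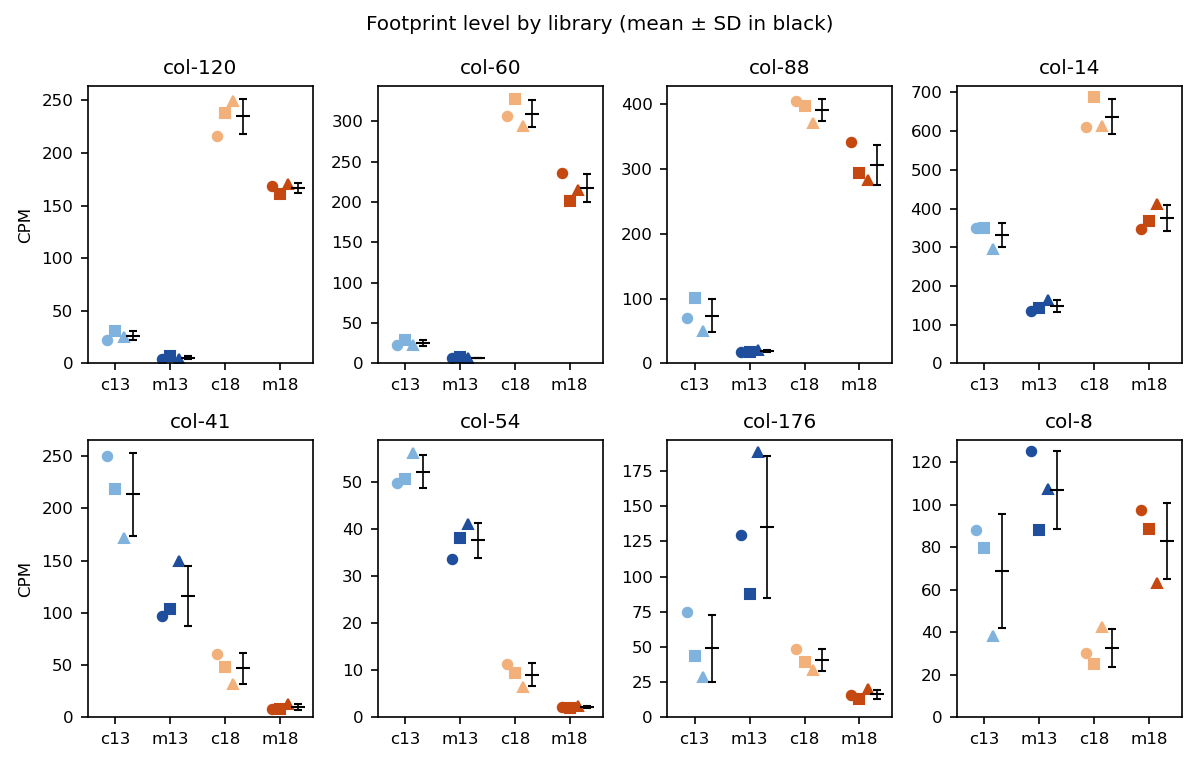
CPM of 8 members in each library, with the group mean ± SD in black; c13 is control_for_U13A, m13 let7_U13A, c18 control_for_U18A and m18 let7_U18A, and circles, squares and triangles are replicates A, B and C. col-120, col-60, col-88 and col-14 stand higher in the U18A table, col-41 and col-54 in the U13A table, and col-176 is higher in the mutant of the U13A pair and lower in that of the U18A pair.

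The plot of these 8 members shows col-120, col-60, col-88, col-54, col-14 and col-41 with a larger step in CPM between the controls than within either pair. The 2 controls, neither of which carries a let-7 change, were therefore compared with each other. They differ in strain, in the lin-41 allele, in maIs105 and in the table in which they were deposited, and these cannot be told apart. Of the 131 members tested, 34 were higher and 16 lower in control_for_U18A than in control_for_U13A, 38.2% of members against 25% of all genes (13.4% higher and 11.6% lower). Of these 29 and 14 differed by 1 or more on the log2 scale.

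col-60 had the largest difference, with 307, 328 and 294 CPM in control_for_U18A against 22.96, 29.1 and 22.7 CPM in control_for_U13A, a 12.4-fold higher mean (3.65 ± 0.13 SE on the log2 scale, edgeR adjusted p = 2.43e-12). col-120 followed at 3.18 ± 0.13 SE, then col-184 at 3.08 ± 0.34 SE and col-106 at 2.96 ± 0.27 SE. In the other direction stood col-54 at -2.50 ± 0.16 SE, col-90 at -2.39 ± 0.14 SE, col-41 at -2.17 ± 0.29 SE and col-55 at -1.96 ± 0.32 SE. For col-90 the libraries read 95.0, 90.0 and 70.9 CPM in control_for_U18A and 463, 460 and 448 CPM in control_for_U13A. Of the late collagens 6 were higher in control_for_U18A, by 1.40 to 2.28 on the log2 scale, and col-19, at 0.88 ± 0.32 SE, did not pass the test (edgeR adjusted p = 0.065). This comparison shares its libraries with both pairs. The number lower was 10 without control_for_U13A replicate B or without control_for_U18A replicate C and 26 without control_for_U13A replicate C.

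Other genes of the cuticle pathway are given from lists drawn up from general knowledge. Of 18 tested collagens named for mutant body shape, 17 fell in the U18A pair, while in the U13A pair 4 rose and 1 fell. Their median log2 fold change was -1.06 in the U18A pair and 0.18 in the U13A pair. The gene that fell in both pairs was dpy-5, by 0.72 ± 0.17 SE and 0.78 ± 0.10 SE. In the difference between the pairs 11 of the 18 were higher, against 4 of the 131 numbered members. The 5 largest of these 11 were dpy-10 at 2.33 ± 0.32 SE, dpy-7 at 2.16 ± 0.33 SE, dpy-9 at 1.99 ± 0.39 SE, dpy-2 at 1.97 ± 0.27 SE and dpy-8 at 1.86 ± 0.40 SE. Of 10 enzymes and cofactors that modify, fold, cleave or cross-link collagen, 4 fell in the U18A pair, and the median log2 fold change was -0.23 there and 0.02 in the U13A pair. The prolyl hydroxylase subunit gene phy-2 and dpy-11, a thioredoxin-like enzyme gene, changed differently between the pairs, by 0.94 ± 0.18 SE and 0.95 ± 0.15 SE. Of 10 regulators of epidermal genes or larval timing, 1 rose in the U13A pair and 2 fell in the U18A pair. The transcription factor genes blmp-1 and hbl-1, the latter a known let-7 family target, differed between the pairs, by 1.12 ± 0.17 SE and 1.72 ± 0.42 SE. The level of hbl-1 was low, at a mean of 1.64 CPM. Its change in the U18A pair, -0.715 ± 0.33 SE, was not called (edgeR adjusted p = 0.212).

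Lists of stage and of other tissues were read beside the members. In the difference between the pairs 9 of the 10 molting genes were higher, led by fbn-1, a matrix gene needed for molting, at 3.66 ± 0.38 SE on the log2 scale, while the median of the 10 oocyte genes was 0.04. In the difference between the controls 9 of the 10 molting genes and 8 of the 10 oocyte genes were higher in control_for_U18A. Of 10 sperm genes 1, spe-44, fell in both pairs. The summed level of the sperm list was 398 to 483 CPM over the 12 libraries. Of 10 intestine genes 4 rose and 1 fell in the U18A pair, and the median log2 fold change of the 10 in the U13A pair was 0.27. The 4 were the yolk genes vit-2, vit-5 and vit-6 and the gene ifb-2, and cpr-6 fell. In that U18A comparison elt-2, ges-1, asp-1, act-5 and pept-1 were not called, at log2 fold changes of 0.02 to 0.23. The 10 muscle genes had medians of 0.04 in the U13A pair, -0.00 in the U18A pair, 0.07 in the difference between the pairs and 0.16 between the controls, at summed levels of 10950 to 16310 CPM. The epidermal markers were present in all groups, at 579 to 1877 CPM in all, and 2 of the 8, dpy-7 and noah-1, rose in the U13A pair. There rol-6, sqt-3, dpy-13, lin-26, elt-3 and nhr-23 were not called, at log2 fold changes of -0.71 to 0.20. The epidermal list shares dpy-7, rol-6, sqt-3 and dpy-13 with the shape collagens and noah-1 and nhr-23 with the molting genes.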

How the data were processed

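Ribosome footprints of 12 libraries of whole mid-L4 larvae were analysed, 3 for each of 4 strains. The authors deposited raw counts of footprint reads per gene in 2 tables, 1 for each mutant and its control; reads were trimmed with cutadapt 1.9 and aligned with Bowtie2 2.3.4.3 to WBcel235, per the submitters' processing notes. The counting tool and its annotation are not given in the sources used here. Samples were grouped by title and genotype, and all 12 columns were used. Totals ran from 8405704 to 44950649 counts, and precision is that of 3 libraries a group.

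Genes were fitted on each whole table in edgeR 4.0.16 under R 4.3.3 (filterByExpr, TMM, robust quasi-likelihood), and p-values were adjusted by Benjamini-Hochberg over all genes tested. Genes were called at an adjusted p under 0.05. Standard errors were derived from the F statistics. Both differences came from 1 fit of the 4 group means over all 12 libraries, that between pairs as a contrast of all 4 and that between controls as a contrast of 2. With 3 libraries against 3, a permutation test of 1 gene cannot go below p = 0.1, so none is given. CPM used all counts of a library, and positions and coding lengths came from Ensembl release 115. The fits were tested on simulated counts.

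Members and lists were chosen with earlier results of these data known. Named members are in either pair up to 8 rises and 8 falls, and, between pairs and between controls, up to 4 differences either way. All were taken by size, with a mean of at least 50 counts. Added to these were the late collagen list, the 5 highest levels, those nearest to 60 counts and those in their near-equal sets. col-73, col-175, col-20, col-39, col-50, col-102, col-37 and col-40 lie outside this rule and were chosen after their values were seen. Alternatives were DESeq2 1.42.0, median-of-ratios scaling, scaling without the members, no count filter, a minimum of 10 counts in each library, thinning to equal depth, a replicate block, all 12 libraries in 1 fit and leaving out each library. Summing near-equal neighbours was added after seeing the data. The late collagen list was written down as an adult list, though 4 of its genes are known as L4 collagens. The division into L4 and adult genes was made later, with the values known. The late collagen, shape collagen, processing enzyme, regulator, molting, sperm, oocyte, intestine, muscle and epidermis lists came from general knowledge.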

Additional observations from a re-analysis of the deposited data

Results flagged for a closer look

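For 7 members the change in the U13A pair differed from the change in the U18A pair by a test of the difference itself, the U13A log2 fold change minus the U18A log2 fold change over all 12 libraries. The first 3 fell further in the U13A pair: col-120 at -1.79, col-88 at -1.65 and col-60 at -1.31. In the U13A pair their log2 fold changes were -2.24, -1.96 and -1.77, and in the U18A pair they were -0.45, -0.30 and -0.46. The other 4 stood lower in the U18A pair: col-176 at 2.78, col-54 at 1.57, col-110 at 0.98 and col-79 at 0.96. Of these col-54 fell in both pairs, by 0.43 and 2.00, and col-176 was the only member of the 7 with fitted changes of opposite sign and a size above 1 in both, at 1.51 and -1.26. The 7 are 5.34% of the members tested, and 5.58% of all genes tested were called for this difference.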

How the results depend on the processing

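Calls in the U13A pair depended most on single libraries. Leaving out each library in turn gave 6 to 33 lower and 0 to 3 higher members there, 35 to 57 lower in the U18A pair, 4 to 8 higher and 2 to 7 lower for the difference between the pairs, and 10 to 26 lower for the difference between the controls. In the U13A pair DESeq2 and no count filter each gave 1 higher member and all 12 libraries in 1 fit gave 2. In the U18A pair no count filter gave 12 higher, and all 12 libraries in 1 fit gave 1 higher and 26 lower. DESeq2 gave 5 lower for the difference between the pairs. The causes were not tested. Without single libraries the uncalled U13A changes reversed for col-19 (-0.048 to 0.64), col-117 (-0.37 to 0.23), col-3 (-0.37 to 0.22), col-10 (-0.41 to 0.13), col-144 (-0.45 to 0.11), col-167 (-0.39 to 0.18), col-79 (-0.14 to 0.0041), col-110 (-0.0082 to 0.20), col-106 (-0.19 to 0.34), col-129 (-0.39 to 0.21) and col-184 (-0.33 to 0.31). Of the values of named members under the alternatives, 884 kept direction and side of the threshold, 71 kept direction and lost the call, and 14 reversed. With the letters as a replicate block 10 members were lower in the U13A pair. Over all genes, the deviations of libraries of the same letter correlated at -0.59 to 0.02 in that pair and -0.02 to 0.30 in the U18A pair. Over the members they correlated at -0.455 to 0.372 and at -0.439 to 0.0994. With 1 value for each letter in a pair, these cannot decide whether a letter marks a shared batch. Summing near copies by protein sequence was not run, because no protein sequences were used here.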

Other observations

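Neighbouring members moved in different directions in the U18A pair, in cases singled out after their values were seen. On chromosome II, col-17, col-20 and col-73 lie in a row on the minus strand, from 4866436 to 4873129. col-17 and col-73 fell, by 0.95 ± 0.09 SE and 0.88 ± 0.08 SE on the log2 scale, and col-20 between them rose by 0.66 ± 0.13 SE (edgeR adjusted p = 0.003995). col-20 read 441, 454 and 463 CPM in control_for_U18A and 820, 721 and 535 CPM in let7_U18A. Further along that chromosome, col-79 fell by 1.03 ± 0.10 SE. col-39, which starts 344 bp from the end of col-79, rose by 0.47 ± 0.13 SE, and col-80 rose by 0.86 ± 0.11 SE. The call of col-39 (edgeR adjusted p = 0.038) did not hold in every fit that left out 1 library. That of col-80 was lost with all 12 libraries in 1 fit, at an edgeR adjusted p of 0.173. col-79, col-39 and col-80 each overlap dph-2 on the other strand, so their counts are uncertain.

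The largest fitted rise of any member in the U13A pair was that of col-50, also singled out after its value was seen. It read 2.86, 2.36 and 1.00 CPM in control_for_U13A and 17.2, 4.67 and 17.95 CPM in let7_U13A, a log2 fold change of 2.74 ± 0.81 SE that did not pass the test (edgeR adjusted p = 0.161). In col-102, col-37 and col-40 too replicate B was the lowest mutant library, at 3.74 to 8.56 CPM with A and C at 13.4 to 25.2 CPM, and none of the 3 was called.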
